A study of Mus musculus with 7 samples.

Results

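Oct1 occupancy was compared between undifferentiated mouse embryonic stem cells (ESCs) and the same parental cells at day 3 of differentiation towards mesoderm. The comparison uses the 2 Oct1 peak lists made for these stages, out of 4 samples of the series with a peak list and 7 samples in all. The ESC list held 17709 peaks and the day 3 list 4867, together 22576 of the 53151 peaks in the 4 lists. Both libraries carried the genotype label Parental and were precipitated with the same antibody, NBP2-21584. The ESC library has no differentiation day. Differentiation towards mesoderm took place on 0.1% gelatin. It began with 2 days of Bmp4, and 4 days of Rspo3 plus the BMP receptor inhibitor LDN-193189 followed, so day 3 falls after the change of medium. Chromatin was crosslinked with 1% formaldehyde and read as pairs of 50 bp on a NovaSeq instrument, and the labels state 100 M read-pairs. A peak list measures binding and not expression, so the labelled cell types could not be checked against their markers.

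Each stage had 1 library, so there is no replicate error, no test between stages was made, and every difference below describes these libraries only. Intervals are exact Clopper-Pearson 95% intervals, which cover counting error only and not antibody, sequencing or culture variation. The lists hold no read counts, so the depth behind each list is unknown. A site called lost was listed in ESCs and not listed at day 3, which does not show that binding was absent. The score of a peak is the authors' own value with no stated unit and was used only to rank peaks within its list.

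Oct1, encoded by Pou2f1, is a widely expressed POU-domain transcription factor. Its bipartite POU domain binds the octamer, a short motif classically known from the promoters of histone H2B genes and of small nuclear RNA genes. Oct4, encoded by Pou5f1, is the relative that maintains pluripotency and binds related sequences. Differentiation towards mesoderm proceeds through a primitive-streak-like state driven by BMP, Wnt, Nodal and FGF signals.

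The sequences below are shown because promoters with Oct1 at both stages held the octamer far more often than promoters in the other groups. They come from RefSeq promoter windows of GRCm38.p6, which run from 250 bases before to 50 after each start, and each is printed 5′ to 3′ on the strand of its gene. Capitals mark the octamer ATGCAAAT, or ATTTGCAT where it lies on the other strand. A match of letters describes the sequence and is not evidence of a binding site. The first 9 windows were overlapped by a peak at both stages, and the last 4 by a day 3 peak only.
H2ac6: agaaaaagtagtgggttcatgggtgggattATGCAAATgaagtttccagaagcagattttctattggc
H2bc8: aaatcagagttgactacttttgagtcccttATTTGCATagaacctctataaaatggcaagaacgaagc
H2bc14: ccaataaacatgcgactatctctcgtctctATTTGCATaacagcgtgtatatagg
H2bc18: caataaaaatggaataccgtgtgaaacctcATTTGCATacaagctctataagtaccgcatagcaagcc
E2f3: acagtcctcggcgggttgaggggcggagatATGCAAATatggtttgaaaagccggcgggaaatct
Gadd45a: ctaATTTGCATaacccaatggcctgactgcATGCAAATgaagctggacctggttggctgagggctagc
Lgr4: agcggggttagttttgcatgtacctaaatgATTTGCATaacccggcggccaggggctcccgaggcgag
Neurog1: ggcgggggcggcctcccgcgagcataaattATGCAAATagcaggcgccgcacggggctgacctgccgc
Zfp42: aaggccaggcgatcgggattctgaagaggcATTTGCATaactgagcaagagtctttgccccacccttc
Cdx2: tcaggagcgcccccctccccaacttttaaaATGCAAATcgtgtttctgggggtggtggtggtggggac
Dll1: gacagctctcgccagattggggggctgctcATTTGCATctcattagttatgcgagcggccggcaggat
Nrarp: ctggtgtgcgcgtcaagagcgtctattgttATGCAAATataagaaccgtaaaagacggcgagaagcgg
H2bc6: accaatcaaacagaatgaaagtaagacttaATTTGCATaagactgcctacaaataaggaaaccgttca

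Of these stretches, H2ac6 (chr13:23684052-23684119), E2f3 (chr13:29986064-29986128), Gadd45a (chr6:67037440-67037507), Neurog1 (chr13:56252281-56252348) and Zfp42 (chr8:43307158-43307225) lie on the minus strand. On the plus strand are H2bc8 (chr13:23571311-23571378), H2bc14 (chr13:21721989-21722043), H2bc18 (chr3:96269622-96269689) and Lgr4 (chr2:109917568-109917635). Among the day 3 windows, Nrarp (chr2:25180679-25180746) is on the plus strand. Cdx2 (chr5:147307359-147307426), Dll1 (chr17:15376005-15376072) and H2bc6 (chr13:23586000-23586067) are on the minus strand. The Gadd45a stretch holds 2 octamers in opposite orientation. H2ac8 and H2bc8 are transcribed away from each other, and the octamer of H2bc8 is the same piece of chromosome as that of H2ac8. Genes can hold further peaks outside these windows, and so Dll1, Nrarp and H2bc6 count as kept when peaks within 10 kb are used.

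Across protein-coding genes, most binding listed in ESCs was not listed at day 3, while a smaller set of genes was listed at day 3 only. A gene was counted as bound where a peak lay in its body or within 10 kb of it. Of 21887 genes, 4599 lost Oct1 (21.0%), 3116 kept it (14.2%) and 2273 gained it (10.4%). Of the kept genes, 1657 had peaks that overlapped between the stages, and the other 1459 had a peak at each stage in different places. The lost share depends on the longer ESC list. With only the 4867 highest-scored ESC peaks, 1703 genes were lost, 1863 kept and 3526 gained, which turns the order of lost and gained around.

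The position of the sites changed with the stage. Of the 16137 lost ESC peaks, 7.65% (7.24 to 8.07) were centred no more than 1 kb from an end of a protein-coding gene. Among the 1572 ESC peaks that were kept the share was 30.5% (28.2 to 32.8). Among the 3296 gained day 3 peaks it was 64.0% (62.3 to 65.6). The median distance to the nearest gene end was 16497 bp for lost, 7419 bp for kept and 230 bp for gained peaks. A RefSeq promoter window was overlapped by 5.14% of lost peaks, 29.0% of kept ESC peaks and 57.6% of gained peaks.

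The highest-scored ESC sites were nearly all present at day 3. Of the top 100 ESC peaks, 98 overlapped a day 3 peak, against 63.8% (58.8 to 68.5) at ranks after 100 and up to 500, and 4.41% (4.06 to 4.78) beyond rank 4867. Kept ESC peaks were more often at gene ends at matched rank. At ranks 501 to 1000, 58.7% of ESC peaks at gene ends were kept (49.4 to 67.6) and 26.2% of the others (21.9 to 30.9). In the day 3 list the order was the opposite. All of its top 100 peaks were shared with ESCs, but at ranks 501 to 1000 only 15.2% of gene-end peaks (11.6 to 19.3) were, against 49.3% (40.7 to 57.9) of the others.

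**Figure D1:**
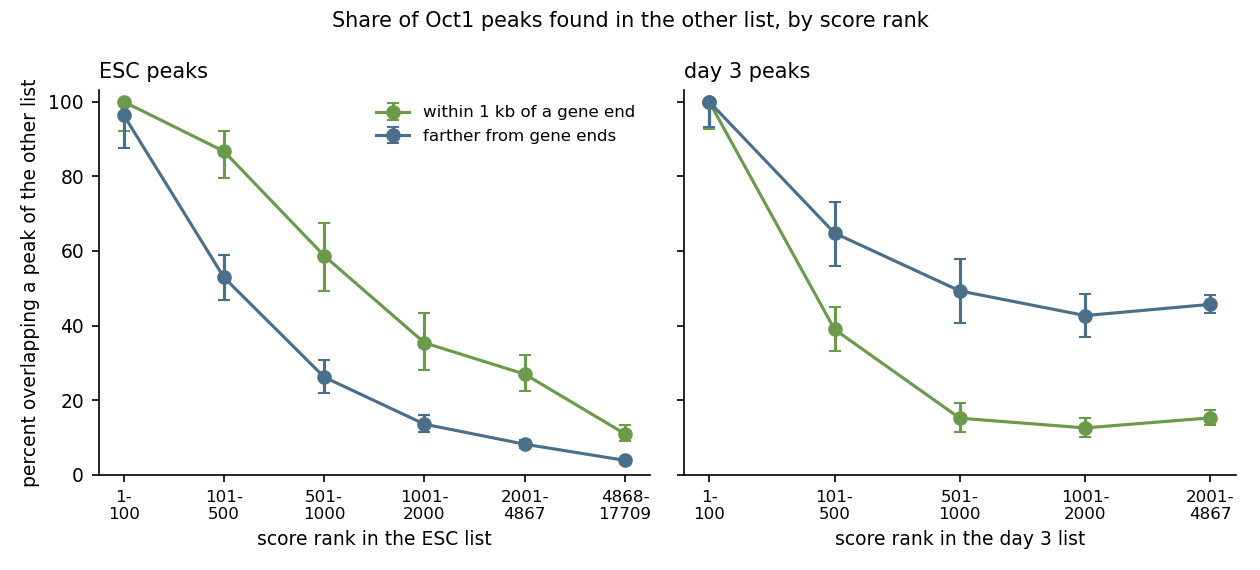
Share of Oct1 peaks that overlap a peak of the other stage (vertical axis, percent) by score rank within the list (horizontal axis), for ESC peaks on the left and day 3 peaks on the right. Points are shares with exact 95% intervals, green for midpoints within 1 kb of a gene end and blue for the rest. At ranks 501 to 1000 the green point is higher in ESCs (58.7% against 26.2%) and lower at day 3 (15.2% against 49.3%).

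Other lists of the series separated the classes as well. An ESC Oct4 peak overlapped 59.8% of lost Oct1 peaks (59.1 to 60.6), 51.3% of kept ESC peaks (48.8 to 53.8) and 5.46% of gained peaks (4.71 to 6.29). An Oct1 peak of day 6 overlapped 4.02% of lost (3.72 to 4.33), 33.8% of kept (31.5 to 36.2) and 70.3% of gained peaks (68.7 to 71.9). Sites kept from ESCs to day 3 were thus listed again at day 6 less often than sites gained at day 3.

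Gene groups were set beside all genes, of which 21.0% were lost, 14.2% kept and 10.4% gained, or 7.78%, 8.51% and 16.1% with equal list lengths. The stacked bars of the gene lists show the first of these shares for each list drawn. All genes together held 12611 distinct ESC peaks and 4206 at day 3, about 3 to 1, so a fall in distinct peaks of that size is the background. Genes in clusters share peaks, so numbers of distinct peaks are given where they matter.

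**Figure D2:**
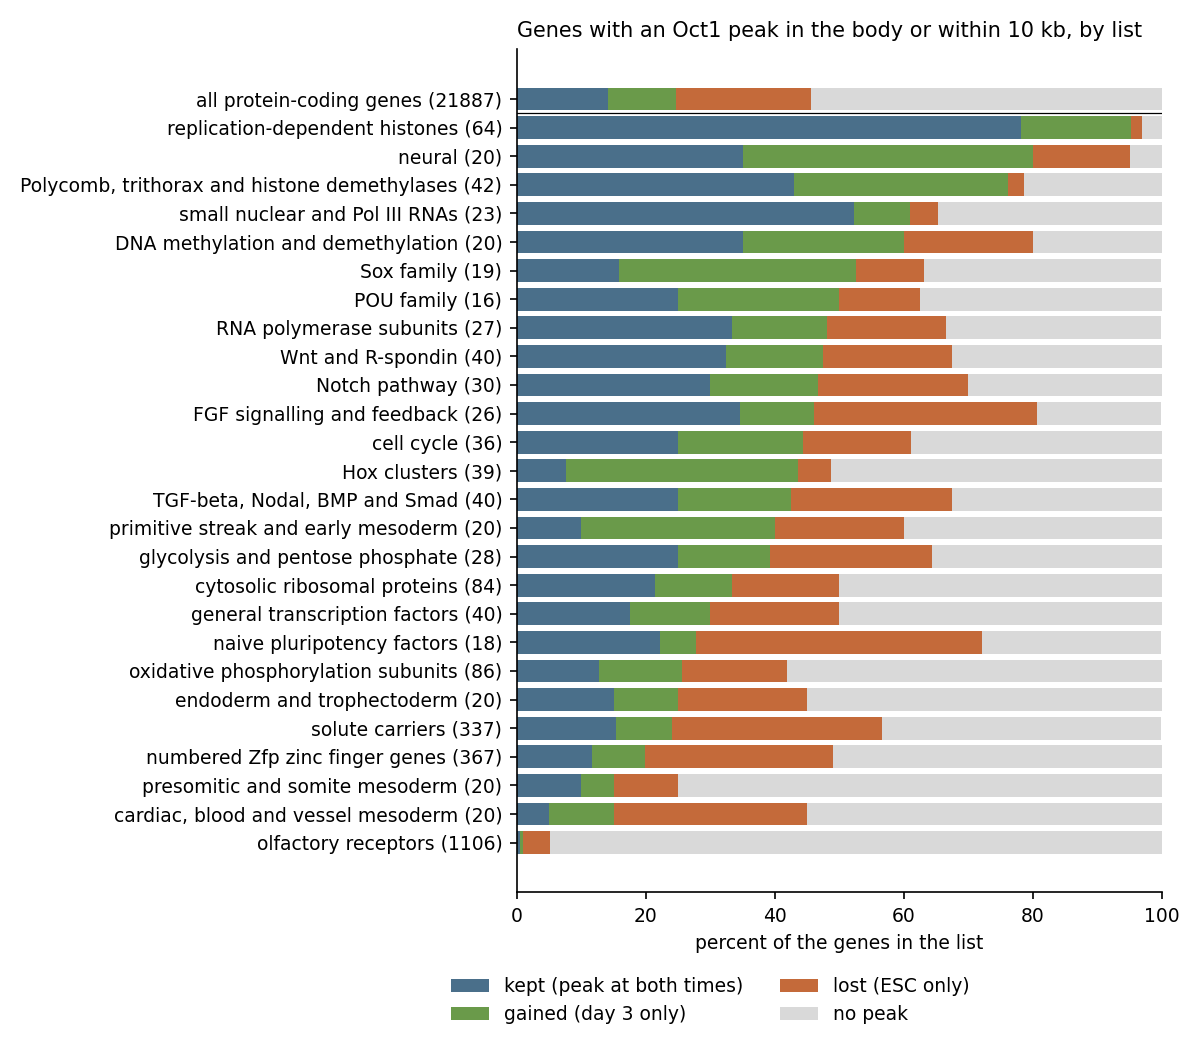
Percent of the genes in each list (horizontal axis) with an Oct1 peak in the body or within 10 kb at both stages (blue), at day 3 only (green), in ESCs only (orange) or at neither (grey), with the number of genes in parentheses. All protein-coding genes are on top. The small nuclear and Pol III RNA bar leaves out 5S copies and pseudogenes. The lists of other ESC-enriched genes and of H2B histones alone are not drawn. Replication-dependent histones are nearly all blue or green, whereas orange is the most frequent bound class in the naive pluripotency and cardiac lists, as it is in all genes.

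Genes of the naive pluripotency network were in every class. Of 18 factors, 8 were lost (44.4%, 21.5 to 69.2), 4 kept and 1 gained, beside the 21.0%, 14.2% and 10.4% of all genes. Their distinct peaks numbered 32 in ESCs and 5 at day 3. Esrrb, an orphan nuclear receptor of the naive network, had 12 ESC peaks and none at day 3. Its best, at chr12:86501741-86502590, had score 641 and rank 612. Nanog, the homeodomain factor of pluripotent cells, had 1 ESC peak (score 214) and was lost, as were Prdm14, Tfcp2l1, Nr5a2, Lifr, Fgf4 and Klf2. With only the top 4867 ESC peaks, 7 factors were lost, 3 kept and 2 gained. Of the 12 factors bound in ESCs 33.3% were kept, against 40.4% of all genes bound in ESCs. With the gene body only, 4 were lost (22.2%), 2 kept (11.1%) and 2 gained (11.1%), against 15.9%, 8.03% and 9.65% of all genes. Within 1 kb of a gene end 1 was lost (5.56%), 2 kept (11.1%) and 2 gained (11.1%), against 5.38%, 3.14% and 10.8%.

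The pluripotency genes that kept Oct1 did so in different ways. Stat3, the effector of LIF signalling, held a shared site at chr11:100939231-100940120, with score 4701 (rank 76) in ESCs and 2779 (rank 74) at day 3. Zfp42, also known as Rex1 and a marker of naive cells, had its promoter peak at rank 119 in ESCs with score 2665 and at rank 1072 at day 3 with score 383. Among the shared sites alone, Zfp42 stood at percentile 92.6 in ESCs and 72.8 at day 3, a move below the 25 points used as a threshold. Pou5f1 itself had 3 ESC peaks, the best with score 597 at chr17:35503771-35504310. Its single day 3 peak, with score 215, lay elsewhere, at chr17:35516611-35517350. Sox2, the partner of Oct4, had no ESC Oct1 peak within 10 kb and a day 3 peak of score 221 in the gene. Of 20 other ESC-enriched genes 2 were lost, 5 kept and 3 gained. Among them Dppa5a (score 384 in ESCs) was lost and Lefty2 was kept with score 595 in ESCs and 192 at day 3.

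Genes of the primitive streak and early mesoderm were found in all classes. Of 20, 6 were gained (interval 11.9% to 54.3%), 4 lost (5.73% to 43.7%) and 2 kept, beside 10.4% gained and 21.0% lost among all genes. With a window of 50 kb 4 of the 20 were gained, 6 lost and 7 kept, against 7.64%, 24.8% and 33.8% of all genes. The list had 14 distinct ESC peaks and 11 at day 3. Sp8 (day 3 score 793), Foxa2 (601), Cdx2 (455), Fgf8 (434), Lhx1 (372) and Tbx6 (248) were gained. Cdx2, a caudal homeodomain factor of the posterior embryo, had its day 3 peak at chr5:147307071-147307630, over the octamer printed above. Mesp2, Cdx1, Sp5 and Evx1 were lost, and their ESC scores ran from 53 to 310. Eomes, a T-box factor of the streak, was kept at an overlapping site with score 122 in ESCs and 221 at day 3, and moved from percentile 24.8 to 57.6 among the shared sites.

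Of 20 cardiac, blood and vessel genes, 6 were lost (interval 11.9% to 54.3%, against 21.0% of all genes), 1 kept and 2 gained, and 24 distinct ESC peaks stood against 3 at day 3. At day 3, 3 of the 20 were bound, against 24.6% of all genes. The lost count fell to 3 with equal list lengths and to 1 within 1 kb of a gene end. Pecam1 (best ESC score 384), Hand1 (341), Gata4 (217), Kdr (144), Tbx5 (106) and Gata2 (97) were lost. Isl1 and Gata6 were gained with day 3 scores of 208 and 70. Runx1 was kept, with 10 ESC peaks and 1 day 3 peak that did not overlap them. Of 20 presomitic and somite genes, 15 had no peak at either stage (75.0%, 50.9 to 91.3), as did 54.4% of all genes.

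Of 20 neural genes, 16 were bound at day 3 and 10 in ESCs, against 24.6% and 35.2% of all genes. Of these genes 9 were gained (45.0%), 7 kept and 3 lost. Distinct peaks numbered 16 in ESCs and 17 at day 3, against 12611 and 4206 for all genes. Hes5, a Notch target and repressor of neurogenesis, ranked 41 in ESCs (score 9366) and 37 at day 3 (score 6384). Zic1 ranked 149 in ESCs (score 2154) and 36 at day 3 (score 6469), and Pax6 ranked 276 (score 1232) and 98 (score 2120). Ranks from lists of unequal length do not show a change, so the shared sites were also ranked among themselves. In that order 5 of 6 sites near neural genes stood higher at day 3, as did 796 of all 1564 shared sites. The gained genes were Pou3f3 (day 3 score 453), Sox1 (417), Nkx6-1 (246), Pou3f1 (220), Pou3f2 (153), Irx3 (147), Lhx2 (128), Zic5 (100) and Six3 (90). The lost ones were Nes, Otx2 and Olig2. With the top 4867 ESC peaks, 1 was lost, 5 kept and 11 gained. With the gene body only, 9 neural genes were bound at day 3 and 3 in ESCs (17.7% and 23.9% of all genes), and within 1 kb of a gene end also 9 and 3 (14.0% and 8.52%). With the upper 50% of scores 8 were bound at each stage. The median neural gene is 4.69 kb long, against 17.2 kb for all genes.

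Among all genes 10.4% were gained, 14.2% kept and 21.0% lost. Of 19 Sox genes, 7 were gained (36.8%), 3 kept (15.8%) and 2 lost (10.5%), and Sox12 had the highest day 3 score among the gained ones (681). With a window of 50 kb, 2 Sox genes were gained (10.5%), 9 kept (47.4%) and 3 lost (15.8%), against 7.64%, 33.8% and 24.8% of all genes. The gained Sox count was 8 with the gene body only (42.1%, against 9.65%) and 7 within 1 kb of a gene end (36.8%, against 10.8%). By nearest gene it was 7 (36.8%, against 8.29%) and with the upper 50% of scores 4 (21.1%, against 7.91%). Of 39 Hox genes, 14 were gained (35.9%), 3 kept (7.69%) and 2 lost (5.13%), but these rest on only 3 distinct ESC peaks and 7 at day 3. The gained Hox count was 5 within 1 kb of a gene end (12.8%, against 10.8% of all genes) and 5 by nearest gene (12.8%, against 8.29%). It was 6 with the gene body only (15.4%, against 9.65%) and 23 with a window of 50 kb (59.0%, against 7.64%). A single day 3 peak (score 312) accounts for Hoxb6, Hoxb7, Hoxb8 and Hoxb9, and another with score 289 for Hoxd10 to Hoxd13. Hoxa13, the most 5′ gene of its cluster, had the highest day 3 score among the gained Hox genes (872, rank 277). Among 16 POU genes 4 were gained (Pou6f1, Pou3f3, Pou3f1 and Pou3f2; interval 7.27% to 52.4%), 4 kept and 2 lost (12.5%). Pou2f1, which encodes Oct1, was kept at an overlapping site, with score 142 in ESCs and 599 at day 3. Among the shared sites alone it stood at percentile 30.4 in ESCs and 81.5 at day 3.

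Genes of the BMP, Wnt and FGF signalling pathways were split across all classes. For TGF-beta, Nodal, BMP and Smad genes, 10 of 40 were lost (12.7% to 41.2%, against 21.0% of all genes), 10 kept and 7 gained, with 50 distinct ESC peaks and 18 at day 3, a ratio near that of all genes. With equal list lengths 4 were lost, 8 kept and 9 gained, which turns the order of lost and gained. With the upper 50% of scores 13 were lost (32.5%), 1 kept (2.50%) and 5 gained (12.5%), against 17.2%, 7.05% and 7.91% of all genes. Ski, a corepressor of Smads, was lost from a best ESC score of 832, whereas Id3, a BMP target, was gained with a day 3 score of 577. For Wnt and R-spondin genes, 8 of 40 were lost, 13 kept and 6 gained, with 77 and 22 distinct peaks, and with equal list lengths 2, 8 and 11. Lgr4, an R-spondin receptor, kept its promoter site with score 2389 (rank 131) in ESCs and 1579 (rank 137) at day 3. Znrf3, a membrane ubiquitin ligase that R-spondin restrains, was gained with score 684. Of 26 FGF genes, 9 were lost, 9 kept and 3 gained, and with equal list lengths 4, 6 and 6. Fgf4 was lost, Etv5 was kept with score 867 in ESCs and 1475 at day 3, and Fgf8 was gained.

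In the Notch pathway, 7 of 30 genes were lost (23.3%, against 21.0% of all genes), 9 kept and 5 gained. With equal list lengths 2 were lost, 7 kept and 7 gained. Jag2, a ligand, was among the highest-scored genes at both stages, with score 26148 (rank 16) in ESCs and 31637 (rank 7) at day 3, at chr12:112929431-112930330. Jag1, another ligand, was gained with day 3 score 473. Dll1 and Nrarp each had an ESC peak and a separate day 3 promoter peak. Their ESC scores were 157 and 167 and their day 3 scores 523 and 371.

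Few chromatin regulators were lost. Of 42 Polycomb, trithorax and histone demethylase genes, only Ash2l was lost (2.38%, 0.0603 to 12.6), 18 were kept (42.9%) and 14 gained (33.3%), against 21.0%, 14.2% and 10.4% of all genes. With the top 4867 ESC peaks none was lost (7.78% of all genes), 15 were kept and 17 gained. Of the 18 kept genes, 9 had overlapping peaks. Kdm2b, a CxxC-domain demethylase of a variant Polycomb complex, ranked 4 at both stages, with score 88299 in ESCs and 67255 at day 3. Pcgf2, a ring-finger subunit, ranked 22 (score 17155) and 34 (score 6668). Gained members included Kmt2a (score 1668), Rnf2 (1131), Pcgf5 (635), Suz12 (172) and Eed (200). These genes are long, with a median of 42.8 kb. By nearest gene, 5 were lost (11.9%), 9 kept (21.4%) and 17 gained (40.5%), against 18.7%, 8.91% and 8.29% of all genes. With the gene body only 4 were lost (9.52%), 8 kept (19.0%) and 17 gained (40.5%), against 15.9%, 8.03% and 9.65%. Within 1 kb of a gene end none was lost, 4 were kept (9.52%) and 18 gained (42.9%), against 5.38%, 3.14% and 10.8%.

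By peaks within 10 kb, replication-dependent histone genes had the highest kept share of the lists drawn in the bars. Of 64 genes matched, 50 were kept (78.1%, 66.0 to 87.5), 11 gained and 1 lost, and 48 of the kept genes had overlapping peaks. The lost gene was H1f0, a linker histone gene caught by the name pattern that is known to be expressed independently of replication, and its ESC peak lay 5032 bp from the gene. The genes sit in clusters, and their distinct peaks numbered 22 in ESCs and 44 at day 3. H2ac6 and H2bc4 shared the peak with the highest ESC score of the list, 2245 (rank 136), and the day 3 score was 1848 (rank 112). H2A and H2B genes were kept in 12 of 17 and 13 of 16 cases, H3 in 11 of 12, H4 in 9 of 12 and H1 in 5 of 7. The kept share depends on how peaks are given to genes. By nearest gene 17 were kept (26.6%), 27 gained (42.2%) and 5 lost (7.81%), against 8.91%, 8.29% and 18.7% of all genes. Wnt genes (27.5%) and FGF genes (26.9%) then had slightly higher kept shares. With the gene body only 26 histone genes were kept (40.6%), 28 gained (43.8%) and 1 lost (1.56%), against 8.03%, 9.65% and 15.9% of all genes.

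When only promoter windows were considered, the peak classes differed between the histone types. Of all 32851 windows, 560 were overlapped at both stages and 2653 at day 3 only. H2A windows were overlapped at both stages in 9 of 17 cases and H2B windows in 9 of 15. H3 windows were overlapped at day 3 only in 9 of 10 and H4 windows in 8 of 11. H1 windows were overlapped at both stages in 4 of 7 cases, at day 3 only in 1 and in ESCs only in 1. The octamer was present in 6 of 17 H2A and 7 of 15 H2B windows and in none of the 10 H3, 11 H4 and 7 H1 windows. H2ac12 and H2bc12 share an octamer, as do H2ac8 and H2bc8, and each was counted in both types. Shared sites near histone genes also stood higher in the day 3 order, as described below.

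Of 100 genes for small nuclear RNAs and other short RNAs made by dedicated promoters, 13 were kept (13.0%, against 14.2% of all protein-coding genes), 5 lost and 3 gained. Leaving out 5S copies and pseudogenes, 12 of 23 were kept (52.2%, 30.6 to 73.2), 2 gained and 1 lost, and all 12 kept genes had overlapping peaks. This split of the list was made after seeing the data. Rnu2-10, a U2 gene, ranked 15 in ESCs (score 26221) and 29 at day 3 (score 7693). Rn7sk, which encodes the 7SK RNA that holds P-TEFb inactive, ranked 117 (score 2679) and 95 (score 2185). Rpph1, the RNA of RNase P, ranked 70 (score 5095) and 114 (score 1840), and Rmrp ranked 130 (score 2410) and 75 (score 2774). Rnu7, whose RNA takes part in 3′ end formation of histone transcripts, was gained with score 1121 (rank 199). Of 77 5S copies and pseudogenes 71 had no peak. Over all 1004 annotated small nuclear RNA genes, copies included, 81 were lost, 60 kept and 28 gained. Of those bound in ESCs 42.6% were kept, close to the 40.4% of all protein-coding genes. Taf12, the general transcription factor gene with the highest ESC score (8028), was counted through a peak at chr4:132269971-132270800 that covers the neighbouring Rnu11.

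The lists of ribosomal protein and oxidative phosphorylation genes lay nearer to the shares of all genes. Of 84 cytosolic ribosomal protein genes, 14 were lost (16.7%), 18 kept (21.4%) and 10 gained (11.9%). Of 86 oxidative phosphorylation genes 14 were lost, 11 kept and 11 gained (16.3%, 12.8% and 12.8%). With equal list lengths the counts were 10, 11 and 17 for the ribosomal genes and 10, 6 and 16 for the oxidative phosphorylation genes, and the order of lost and gained turned in both, as in all genes. Within the latter, Ndufa4l2 held the highest score of both lists, 163148 in ESCs and 162276 at day 3. Polr2a, the largest subunit of RNA polymerase II, ranked 2 at both stages (scores 124348 and 74978). Of 27 RNA polymerase subunit genes 5 were lost, 9 kept (33.3%, 16.5 to 54.0) and 4 gained, and of 40 general transcription factor genes 8, 7 and 5. For the polymerase genes equal list lengths gave 0 lost, 4 kept and 9 gained. With the gene body only 3 were kept (11.1%, against 8.03% of all genes) and by nearest gene 4 (14.8%, against 8.91%). Of 20 DNA methylation and demethylation genes 4 were lost (5.73% to 43.7%, against 21.0% of all genes), 7 kept and 5 gained, and with equal list lengths 1, 3 and 9. Tet2, a DNA demethylation enzyme, was kept at rank 52 in ESCs (score 7212) and 57 at day 3 (score 3656), whereas Tet1, Dnmt1 and Dnmt3l were lost. The ESC peaks of Dnmt1 (rank 8029) and Tet1 (rank 8764) lie beyond rank 4867 and drop out at equal list lengths. E2f3 ranked 99 in ESCs (score 3621) and 215 at day 3 (score 1053).

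In large gene families, as in all genes (21.0% lost, 10.4% gained), more members were lost than gained when all ESC peaks within 10 kb were used. Of 337 solute carrier genes 110 were lost (32.6%), 52 kept and 29 gained, and of 367 numbered Zfp genes 107 were lost (29.2%), 43 kept and 30 gained. Of 1106 olfactory receptor genes 51 had an ESC peak (4.61%) and 11 a day 3 peak (0.995%), below the 35.2% and 24.6% of all genes. With equal list lengths, 46 solute carrier genes were lost and 46 gained (13.6% each), and 59 numbered Zfp genes were lost and 43 gained. Among all genes 7.78% were lost and 16.1% gained in that setting. Within 1 kb of a gene end, with the full ESC list, 30 solute carrier genes were lost (8.90%) and 33 gained (9.79%). In that setting 41 numbered Zfp genes were lost (11.2%) and 22 gained (5.99%), and 16 olfactory receptor genes were lost and 2 gained. Of all genes 1177 were lost (5.38%) and 2372 gained (10.8%).

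**Figure D3:**
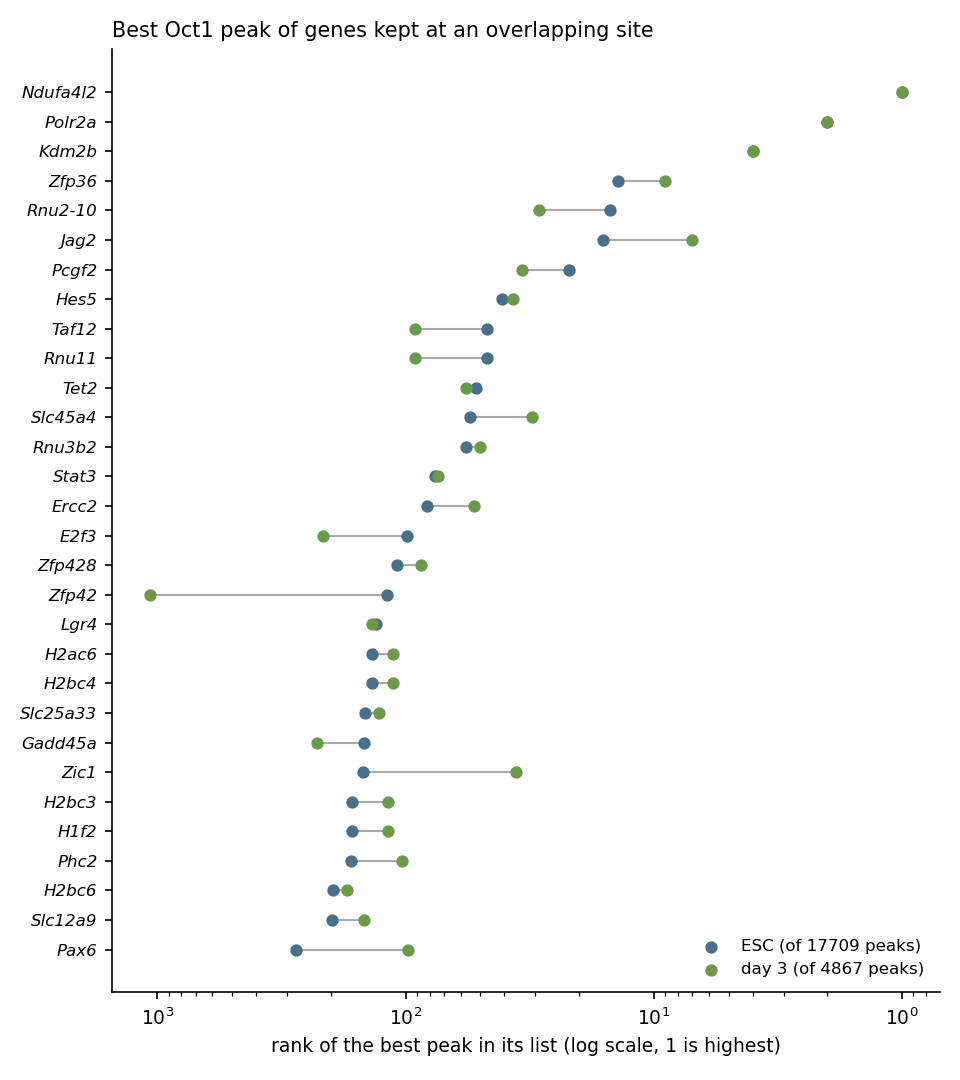
Rank of the best Oct1 peak of each gene in its list (horizontal axis, log scale, rank 1 at the right) in ESCs (blue) and at day 3 (green), for 30 genes. They had overlapping peaks at both stages and the highest ESC ranks among the up to 3 kept genes taken per gene list. Other kept genes named in the text are not drawn. The best peak of a gene may differ between stages, and since the lists differ in length a shift in rank shows no change by itself. Ndufa4l2, Polr2a and Kdm2b hold ranks 1, 2 and 4 at both stages, and Zfp42 stands at rank 119 in ESCs and 1072 at day 3.

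At sites in both lists the order of scores was broadly retained. There were 1564 such sites, made of 1572 ESC and 1571 day 3 peaks. Spearman's rho between the scores was 0.74 across the sites, which belong to the same pair of libraries and are not replicates. The first 5 ranks were held by the same sites, at Ndufa4l2 (chr10:127508921-127510060), Polr2a (chr11:69758111-69759600), Zmiz2 (chr11:6388861-6389800), Kdm2b (chr5:122899921-122900910) and Crlf2 (chr5:109556441-109559210). Of the 100 sites with the highest ESC scores, 74 were among the 100 highest at day 3. Percentiles were then taken among the shared sites alone, so that both stages had lists of equal length. A site was called moved at 25 points. By this rule 169 sites moved up (10.8%) and 167 down (10.7%), and the median move was 12.3 points in either direction.

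The sites that moved up most were at H3c11 (percentile 7.07 in ESCs and 85.3 at day 3), H4c4 (14.0 and 89.4), near Crlf2 (7.07 and 77.2), Ube2d3 (17.6 and 84.9) and Amz2 (26.9 and 88.4). Of these 5, 2 are at histone genes, one of type H3 and one of type H4. The sites that moved down most lay far from gene ends. They were in Trpm1 (82.0 and 4.12), near Hdhd5 (83.3 and 10.3), in Rab11fip4 (80.1 and 8.47), near Cyld (84.6 and 13.4) and near Gpr157, 1419 bp from Mir34a (89.2 and 20.5).

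Median moves were below 25 points for every gene list with at least 10 shared sites. Larger medians came from lists with 1 to 3 sites each. These were the presomitic and somite (+28.5), Hox (+28.5), endoderm and trophectoderm (+29.0) and POU (+51.0) lists. The 20 shared sites near replication-dependent histones had a median move of +8.50 points, against +0.256 for all shared sites. Of the 20, 18 stood higher at day 3, 6 moved up by 25 points (10.8% of all shared sites did) and none moved down. Other lists had median moves as large or larger, with +8.89 points for 19 sites near cytosolic ribosomal protein genes (12 higher, 7 lower) and +11.2 for 10 sites near oxidative phosphorylation genes (8 higher, 1 lower). The 13 sites near small nuclear and Pol III RNAs had a median percentile of 95.6 in ESCs and 95 at day 3. The 23 sites near numbered Zfp genes had a median move of -3.16 points. Sites within 1 kb of a gene end had a median move of +2.75 points, with 70 of 477 up and 28 down, and the other 1087 sites of -0.895 points, with 99 up and 139 down. Distance to gene ends and the histone list move together here, since histone genes are short, and their separate parts were not tested.

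**Figure D4:**
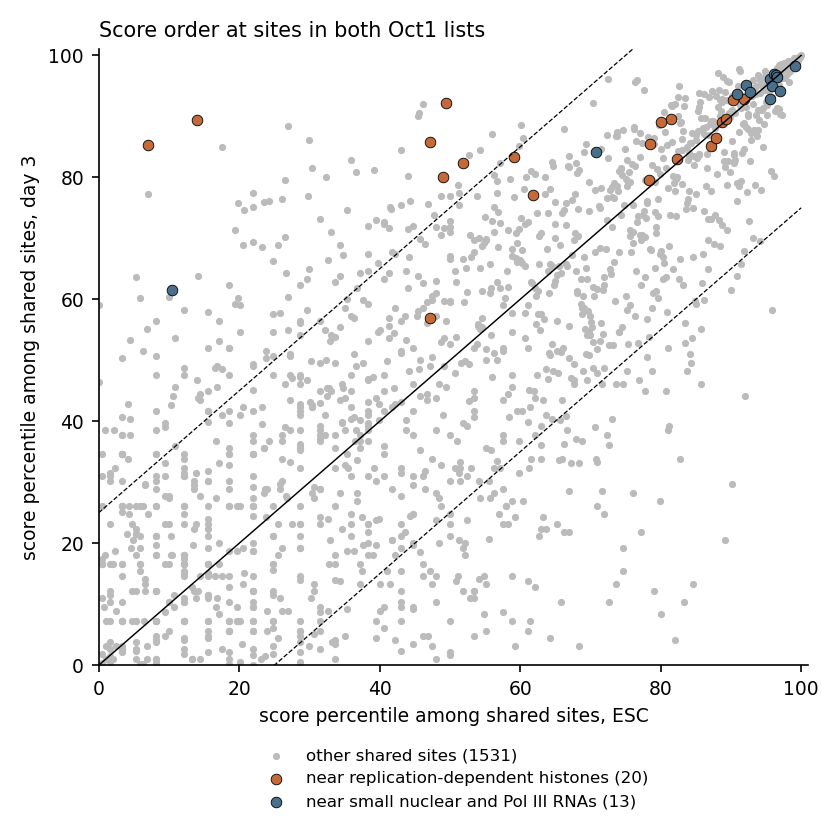
Score percentile of the 1564 shared sites among themselves, in ESCs (horizontal axis) and at day 3 (vertical axis). The solid line marks equal percentiles and the dashed lines a move of 25 points. Of the 20 histone sites (orange), 18 lie above the solid line, and the sites of small nuclear and Pol III RNAs (blue) cluster at the upper right.

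Among the sites listed at 1 stage only, the highest-scored lost site was at chr12:54738431-54738930 (ESC score 7068, rank 54), which covers Gm22317, an annotated small nuclear RNA near Snx6. The highest gained site, at chr12:54713791-54714300 (day 3 score 2058, rank 104), lies over the pseudogene Gm2395 and an annotated small nuclear RNA gene within it. Its midpoint is 24635 bp from that of the lost site, and 5 annotated small nuclear RNA genes lie in the stretch from one to the other, those under both sites included. The nearest peak of the other stage, by midpoint, was neither of these sites and lay 3790 bp from the first and 3795 bp from the second. Other lost sites at high rank lay in Sfi1 (2 sites), Erich1, Bsn and Tmem30c. Other gained sites at high rank lay at Ahsa2 and Kmt2a (both rank 130), Igdcc4, Gpr155, Pou6f1, Mtch2, Trerf1 and H4c9. Among the autosomes kept shares varied from 5.47% of ESC peaks on chromosome 16 to 15.8% (12.7 to 19.3) on chromosome 13, which holds a large histone cluster.

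Promoters with Oct1 at both stages held the octamer most often. Windows were searched for ATGCAAAT on both strands. It was found in 76 of 560 kept windows (13.6%, 10.8 to 16.7), 21 of 1006 lost windows (2.09%, 1.30 to 3.17), 39 of 2653 gained windows (1.47%, 1.05 to 2.00) and 434 of 28632 windows with no peak (1.52%). Of all 32851 windows 1.74% held it. The gained windows were richer in G and C, with a median of 67.0% against 57.3% for kept, 54.7% for lost and 51.3% for windows without a peak. Within windows above the median G and C content, the shares were 12.5% for kept, 1.17% for lost, 1.34% for gained and 0.433% without a peak, and at or below it 18.9%, 4.04%, 4.63% and 2.38%. Without the histone genes 12.7% of kept windows held it. The classes were not matched for peak score. Over all ESC peaks the median score percentile was 85.6 for kept and 46.6 for lost ones. Whether the octamer goes with peak score or with being kept was not tested.

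**Figure D5:**
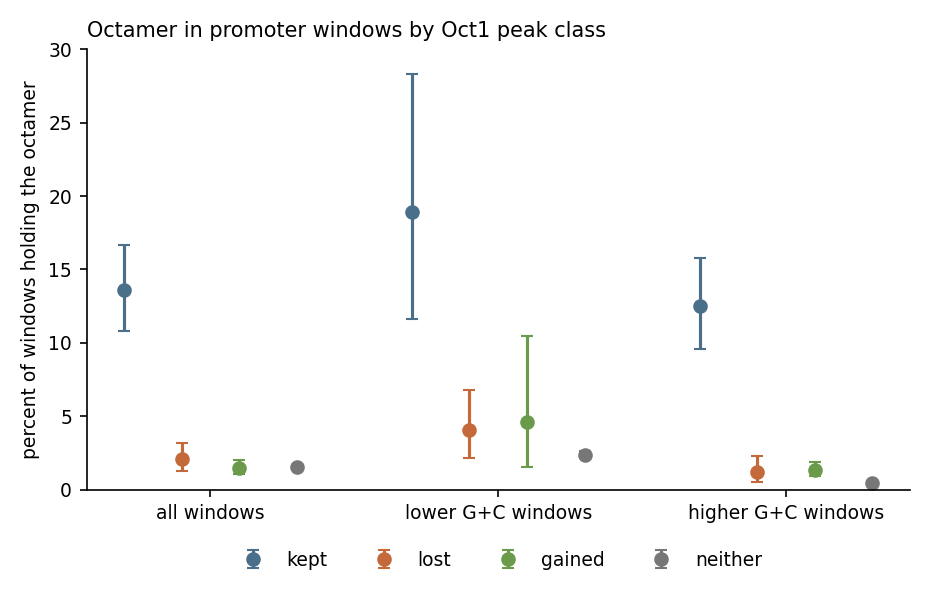
Percent of promoter windows holding the octamer (vertical axis) by peak class, for all windows and for windows at or below and above the median G and C content. Points are shares with exact 95% intervals. The kept class stands at 13.6% over all windows and the other classes at or below 2.09%.

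Of the 91 octamers found in kept windows, 88 were before the start (96.7%) and 44 within 100 bases before it (48.4%). In windows with no peak the shares were 93.0% and 35.0%, and by its extent 85.3% and 34.1% of the positions in a window lie there. In gained windows 37 of 40 octamers were before the start and 20 within 100 bases before it, a share close to that of kept windows. In lost windows the counts were 19 and 4 of 22. Kept peaks over an octamer promoter had higher scores than other kept promoter peaks. Their median list percentile was 98.3 in ESCs and 95 at day 3 (66 peaks), against 91.2 and 66.5 for the 377 kept promoter peaks without it. In Zfp42, Lgr4, Gadd45a, E2f3 and Neurog1 the kept promoter peak lies over the octamer printed above. Neurog1, a proneural factor, had score 993 in ESCs and 1346 at day 3.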

How the data were processed

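The authors deposited 1 peak list per library, with chromosome, start, end, name and a whole-number score. The submitters' processing notes name Novoalign 3.8.2 and the build mm10. The program that called peaks, any threshold or control it used, and the score's unit are not given in the sources used here. Starts were converted to 1-based coordinates and read as GRCm38. Genes, promoter windows and symbols came from RefSeq GRCm38.p6 (21887 protein-coding symbols, of which 17492 had a promoter window). Peaks were shared at an overlap of at least 1 bp. Overlaps, ranks and intervals were computed with pandas 2.3.3, numpy 2.4.6 and scipy 1.17.1 under Python 3.11.15, figures with matplotlib 3.10.9, and the functions were tested on simulated data. The members and gene lists were chosen with earlier results of these data known, and symbols of 28 lists were matched by name. Named genes are, per list, up to 3 in each class by highest score, plus the top 10 sites of each kind, the 5 largest moves each way, and further members of small lists. The score is the authors' own value and was used only within its list. The alternatives tried were other gene windows, other overlaps, equal list lengths, the upper 50% of scores and other motif settings. The ESC Oct4 and day 6 Oct1 lists served only for overlap, and the inputs were not analysed here. The printed sequences, the splits by G and C content, the count without histone genes, the small RNA list without 5S copies and pseudogenes, 1 promoter window per peak and the demand for overlapping peaks at kept genes were chosen after seeing the data.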

Additional observations from a re-analysis of the deposited data

How the results depend on the processing

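With 1 library per stage no replicate could be left out. No paired analysis was possible because each group has 1 library and no test was made. The order of the classes depends on how peaks are given to genes. Kept genes numbered 1758 with the gene body only, 688 within 1 kb of a gene end, 7407 with a window of 50 kb, 1863 with equal list lengths, 1542 with the upper 50% of scores, 1951 by nearest gene and 1657 with overlapping peaks required (the last added after seeing the data), against 3116. Lost genes numbered 1177 within 1 kb of a gene end and 1703 with equal list lengths, against 4599, and gained genes 3526 with equal list lengths, against 2273. Kept ESC peaks were 8.10% and gained day 3 peaks 70.5% when each peak had to cover 50% of the other, against 8.88% and 67.7%; 9.59% were kept with a gap of up to 1 kb; 20.7% and 79.2% with equal list lengths; 8.11% and 70.5% with the upper 50% of scores; and 9.37% and 72.7% without wide or clustered peaks. Moved sites were 46.9% by percentile of the whole list, 55.1% at 10 points and 6.91% at 40 points, against 21.5%, and rho was 0.74 to 0.76 in every setting tried. By gene, the octamer was in 3.73% of kept and 1.25% of lost genes, and in 10.3% and 1.71% within 1 kb of a gene end. With 7 of its letters it was in 18.2% of kept, 9.05% of lost and 3.92% of gained windows. In windows at or below the median G and C content the shares were 18.9%, 4.04% and 4.63%, and above it 1.17% of lost windows. The cause of these shifts was not tested, except that fewer peaks enter at equal list lengths and in the upper 50%. Of 544 values for single gene lists under alternatives, 281 stayed within 1.5 times of the reported count or inside its interval and 263 did not. Depth is unknown, and with small lists 1 gene is several percent.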
